A study of Mus musculus with 6 samples.

Results

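DNA methylation of promoters keeps many genes of germ cells and other specialised cells shut in somatic tissue. DNMT1, the maintenance methyltransferase, copies the methyl marks of CpG dinucleotides from the parental strand to the new strand after each round of replication, so that dividing cells without it lose methylation passively. The genes followed here were protein-coding genes that were silent in cultured control keratinocytes and switched on in Dnmt1-deficient keratinocytes. They were selected on the counts themselves: at most 3 reads in each of the 3 control libraries and at least 0.5 CPM (reads scaled to the same library total) in each of the 3 knockout libraries. Of 43629 genes in the count table, 21474 were protein-coding, and 6513 of these (30.3%) were silent by the first limit. Both limits were met by 53 silent genes. The rule leaves out 12 of them by name, which are not described here, and the remaining 41 make up 0.630% of the silent coding genes.

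Poly(A) RNA was sequenced from epidermal keratinocytes of female pups at postnatal day 3, grown for 5 days according to the labels and methods (a legend of the study gives a shorter time), with 3 libraries from control pups and 3 from Dnmt1Δ/Δep pups. Knockout pups carried K5-Cre and a pair of floxed Dnmt1 alleles (K5-Cre+ Dnmt1 f/f). Control pups carried Dnmt1 f/f or Dnmt1 f/+ according to the study's list of genotypes. The titles of the control libraries read "wt", and the labels do not say f/f or f/+. A heterozygous allele can therefore not be assigned to a library. All pups were of mixed C57BL/6J and 129SV background. K5-Cre is active in keratin 5-expressing cells from mid-gestation, and other cells in the culture keep their Dnmt1 alleles. The libraries held 53433121 to 115526598 gene reads, so that 3 reads corresponded to 0.0254 to 0.0558 CPM. In bulk RNA, fewer cells of a type and less RNA per cell cannot be told apart.

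The targeted gene and the cell type were checked first. Dnmt1 (chromosome 9) had 37300, 36914 and 17381 reads in controls and 2961, 4698 and 5983 in knockouts. Its log2 fold change was -2.83 ± 0.11 (SE, n = 3 per group, edgeR quasi-likelihood test, adjusted p = 8.1e-05), and reads from the gene were still present at 51.6 ± 2.44 CPM (SD, n = 3). The keratinocyte markers Krt5 and Krt14 were at 12655 ± 112 and 6183 ± 463 CPM in the knockout libraries, and none of the 16 keratinocyte markers was called. The summed level of the 16 was lower in each knockout library, at 35745 to 36786 CPM against 45080 to 48975 CPM in controls, and its part in the levels of the 41 genes was not tested. Genes were called where the adjusted p did not exceed 0.05 and the log2 fold change was 1 or more in either direction. Across the 16829 genes tested, 1014 were called upregulated (6.03%) and 66 downregulated (0.392%), and the median log2 fold change was close to 0. Without control replicate 2 the 2 counts were 559 and 15, without control replicate 1 they were 1183 and 180, without control replicate 3 915 and 33, and without knockout replicates 1, 2 and 3 591 and 15, 682 and 25, and 761 and 42.

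The 41 genes had 25, 37 and 41 reads in all in controls 1, 2 and 3 and 6210, 7065 and 12915 in knockouts 1, 2 and 3, the order kept below. Their summed level was 0.264, 0.380 and 0.763 CPM in controls and 104, 81.7 and 109 CPM in knockouts. Each of the 41 was detected in each knockout library, and 14, 22 and 25 of them had at least 1 read in control replicates 1, 2 and 3. All 41 passed the low-count filter and were called upregulated, against the background of 6.03%, and no control library overlapped a knockout library for any of them, against 18.2% of all genes tested. Both counts follow from the limits that chose the genes and are given as a description. In 7 genes (Acss3, Ugt3a2, Defb41, Tuba3a, Ifi213, Cox7b2 and Trap1a) no read was counted in any control library. Set against a floor of 3 reads per control library, their knockout means were at least 24.1-fold (Trap1a) to at least 60.6-fold (Acss3) higher. The other 34 genes had 1 to 7 control reads in all, and their ratios of pooled reads per library size ran from 28.1 (95% exact interval 13.4 to 70.6, Tdrd12) to 854 (236 to 7060, 4930550L24Rik). These intervals cover counting error only.

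**Figure D1:**
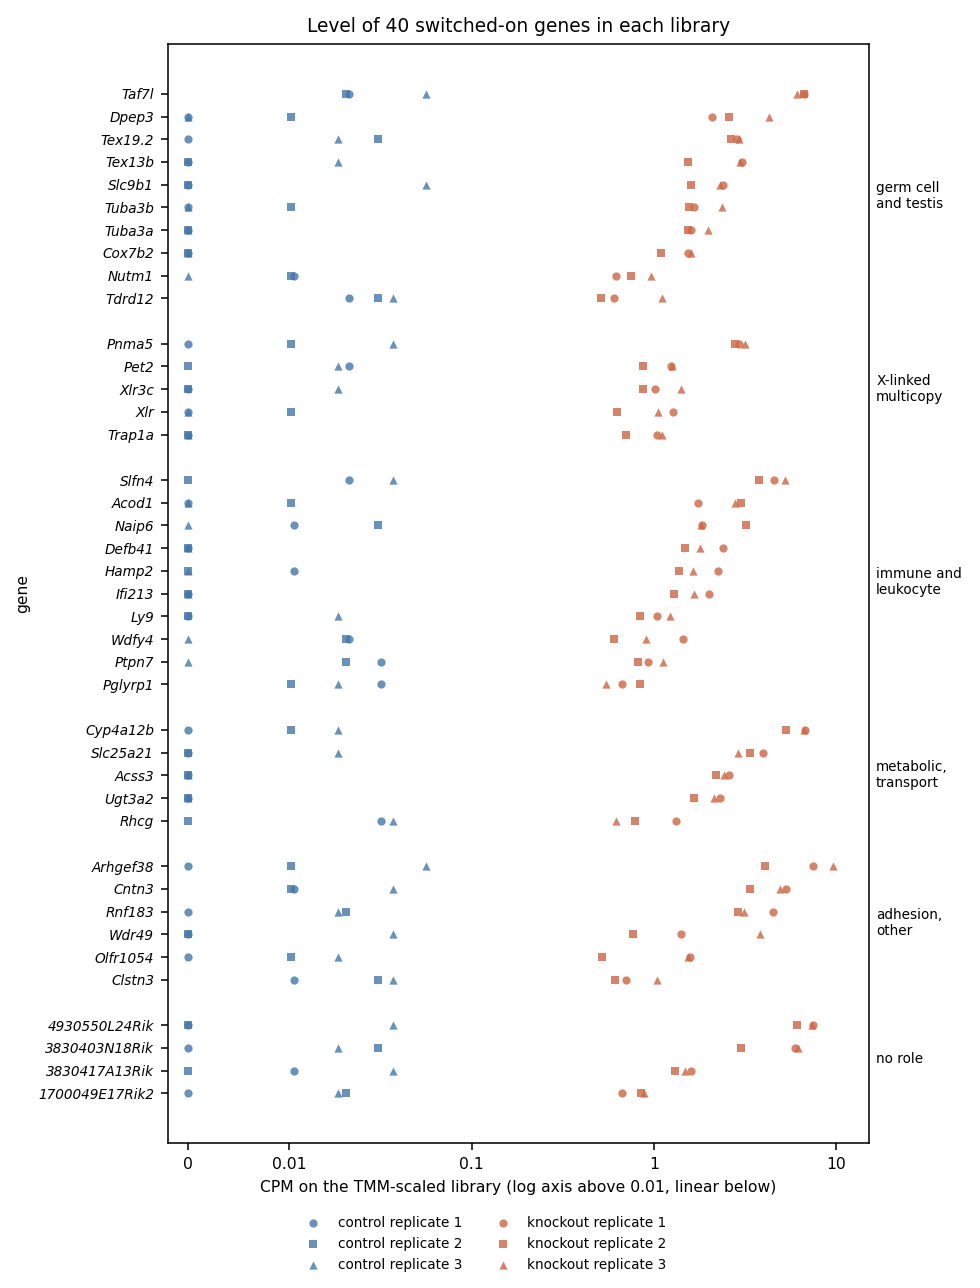
Level of 40 of the 41 genes in each library, in CPM on the TMM-scaled library, with a log axis above 0.01 and a linear axis below. Points are single libraries, blue for control and orange for knockout, and genes are grouped by role. Knockout points lie between 0.5 and 10 CPM, and every control point lies below 0.06 CPM, with many at 0.

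Silent genes that stayed off were by far the larger group. Of the 6513 silent coding genes, 6411 (98.4%) remained under 0.5 CPM in each knockout library, 5457 (83.8%) had at most 3 reads in all 6 libraries, and 3619 had none at all. A further 49 genes reached 0.5 CPM in 1 or more knockout libraries but not in each. Odorant, vomeronasal and other chemoreceptor genes made up 1351 (20.7%) of the silent genes, and 1 of them, Olfr1054, was switched on. Without the chemoreceptors, 0.775% of silent coding genes were switched on. By the same limits 14 non-coding genes also passed, among them 5 lincRNA genes and 3 antisense genes.

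The level reached was low for most genes. The mean knockout level had a median of 1.86 CPM (quartiles 1.03 and 2.95) and ran from 0.682 CPM for Pglyrp1 to 7.05 CPM for Arhgef38, with 31 of 41 genes at 1 CPM or more, 18 at 2 CPM or more and 5 at 5 CPM or more. Per length, which allows levels to be set between genes, the median was 0.699 RPKM, the CPM divided by the exonic length in kilobases, and 13 genes reached 1 RPKM. The 12347 coding genes at 0.5 CPM or more in each knockout library had a median of 7.14 RPKM. Among these, the typical switched-on gene stood at percentile 11.1 and the highest at percentile 40.4. The highest per length were 3830403N18Rik (4.91 RPKM), 4930550L24Rik (4.12), Defb41 (3.08), Hamp2, which ranked next, Taf7l (2.88), Cyp4a12b (2.59), Cox7b2 (2.59) and Rnf183 (2.29), and the lowest was Wdfy4 at 0.0932 RPKM.

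The promoter windows of these genes were described by their sequence and by their number of CpGs, the dinucleotides that DNMT1 methylates. RefSeq promoter windows of 300 bases (250 upstream and 50 downstream of the start, build GRCm38.p6) were matched for 33 of the 41 genes. The 250 upstream bases of several of them are printed 5′ to 3′ on the strand of the gene, in lower case with each CpG dinucleotide in capitals. The first pair, both on chromosome X, is shown because these germ cell genes held the most CpGs among the X-linked members with a window, Taf7l at chrX:134476491-134476740 (minus strand) and Tex13b at chrX:140813434-140813683 (minus strand).
Taf7l: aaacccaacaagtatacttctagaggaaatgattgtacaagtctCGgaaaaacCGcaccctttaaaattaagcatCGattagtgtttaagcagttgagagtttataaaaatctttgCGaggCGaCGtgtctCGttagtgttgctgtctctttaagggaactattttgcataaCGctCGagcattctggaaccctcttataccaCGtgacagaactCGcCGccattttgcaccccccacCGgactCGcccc
Tex13b: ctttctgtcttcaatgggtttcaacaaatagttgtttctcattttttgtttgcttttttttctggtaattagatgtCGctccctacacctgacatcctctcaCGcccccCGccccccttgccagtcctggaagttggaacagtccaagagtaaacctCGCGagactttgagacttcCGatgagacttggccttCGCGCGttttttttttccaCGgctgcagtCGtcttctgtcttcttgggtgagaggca

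The next pair is shown because the sequences are largely the same, 3830403N18Rik at chrX:56136322-56136571 (plus strand) and Xlr at chrX:53797707-53797956 (minus strand). The genes lie apart on chromosome X.
3830403N18Rik: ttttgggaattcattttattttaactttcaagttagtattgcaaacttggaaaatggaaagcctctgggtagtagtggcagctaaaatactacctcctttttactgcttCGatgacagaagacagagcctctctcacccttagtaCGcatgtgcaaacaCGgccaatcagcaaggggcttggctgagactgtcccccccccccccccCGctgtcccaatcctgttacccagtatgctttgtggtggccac
Xlr: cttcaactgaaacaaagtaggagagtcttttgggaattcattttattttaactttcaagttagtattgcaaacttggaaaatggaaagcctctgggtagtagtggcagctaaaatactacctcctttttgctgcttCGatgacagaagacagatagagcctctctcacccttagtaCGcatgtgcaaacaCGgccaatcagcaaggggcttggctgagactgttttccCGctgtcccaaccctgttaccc

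The testis alpha-tubulin pair is shown as the other pair of windows with a long stretch in common, Tuba3a at chr6:125286082-125286331 (minus strand) and Tuba3b at chr6:145615713-145615962 (plus strand).
Tuba3a: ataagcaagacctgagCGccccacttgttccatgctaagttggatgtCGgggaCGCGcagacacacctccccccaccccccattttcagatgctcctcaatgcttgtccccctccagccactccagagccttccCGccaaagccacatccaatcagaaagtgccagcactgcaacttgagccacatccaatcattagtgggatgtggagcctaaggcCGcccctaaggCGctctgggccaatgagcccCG
Tuba3b: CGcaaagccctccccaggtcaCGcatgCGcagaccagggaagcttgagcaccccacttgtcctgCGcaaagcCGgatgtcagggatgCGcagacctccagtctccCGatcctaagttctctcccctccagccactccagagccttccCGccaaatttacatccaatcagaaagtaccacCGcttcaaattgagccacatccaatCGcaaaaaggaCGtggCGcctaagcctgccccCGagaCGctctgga

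Against these stand promoters with few CpGs, of which the 120 bases next to the start are shown: Arhgef38, the gene with the highest read level, at chr3:133234950-133235069 (minus strand), Acod1 at chr14:103046892-103047011 (plus strand) and Defb41 at chr1:18265139-18265258 (minus strand).
Arhgef38: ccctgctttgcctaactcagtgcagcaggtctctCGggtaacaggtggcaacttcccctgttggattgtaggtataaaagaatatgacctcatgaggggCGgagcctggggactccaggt
Acod1: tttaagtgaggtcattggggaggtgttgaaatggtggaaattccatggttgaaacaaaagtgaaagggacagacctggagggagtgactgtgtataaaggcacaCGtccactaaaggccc
Defb41: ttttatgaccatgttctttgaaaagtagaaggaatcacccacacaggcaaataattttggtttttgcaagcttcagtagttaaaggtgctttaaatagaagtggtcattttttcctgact

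Windows of 3830403N18Rik and Xlr shared an unbroken run of 102 bases and were 79.5% identical end to end, with 8 and 7 CpGs. Those of Tuba3a and Tuba3b shared a run of 33 bases, were 61.1% identical and held 12 and 16 CpGs. Among the 528 pairs of windows, these were the 2 that shared at least 20 bases in a row, and the median pair shared 9 bases and was 45.6% identical. None of the 41 genes started within 100 kb of another.

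CpG content was expressed as observed over expected, the number of CpGs divided by the number that the C and G content of the window would give. The median over the 33 windows was 0.344 (quartiles 0.137 and 0.491), with 7 CpGs and 48.3% GC in the median window. None was a high-CpG promoter (at least 0.75 with at least 55% GC), 9 (27.3%) were intermediate (at least 0.48) and 24 (72.7%) were low. In 4808 silent coding genes that stayed off the median was 0.187 (quartiles 0.0887 and 0.343), with 4.06% high, 11.0% intermediate and 84.9% low. The coding genes tested had a median of 0.749, and 43.9% of their windows were high. The other coding genes called upregulated had a median of 0.407, with 16.0% high, over 77.0% of genes with a RefSeq entry. Without chemoreceptors the silent genes that stayed off had a median of 0.218 over 79.4%. A window was matched for 80.5% of the 41 genes, 4808 of the 6411 silent genes that stayed off and 79.1% of the tested genes (80.7% and 81.7% of those with a RefSeq entry outside chromosome 18). Over all their genes, each of these sets beside the 41 falls under 80%, so that a comparison with it is void and the values are given side by side without one. For the 41 genes, 5 of the 33 windows lay more than 1000 bases from the gene start in the GENCODE annotation. The distances were 108434 bases for Cntn3, 50919 for Wdr49, 13359 for Pglyrp1, 2101 for 4930550L24Rik and 1058 for Naip6. These windows are kept in the medians and in the motif counts. Methylation itself was not measured in these libraries.

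**Figure D2:**
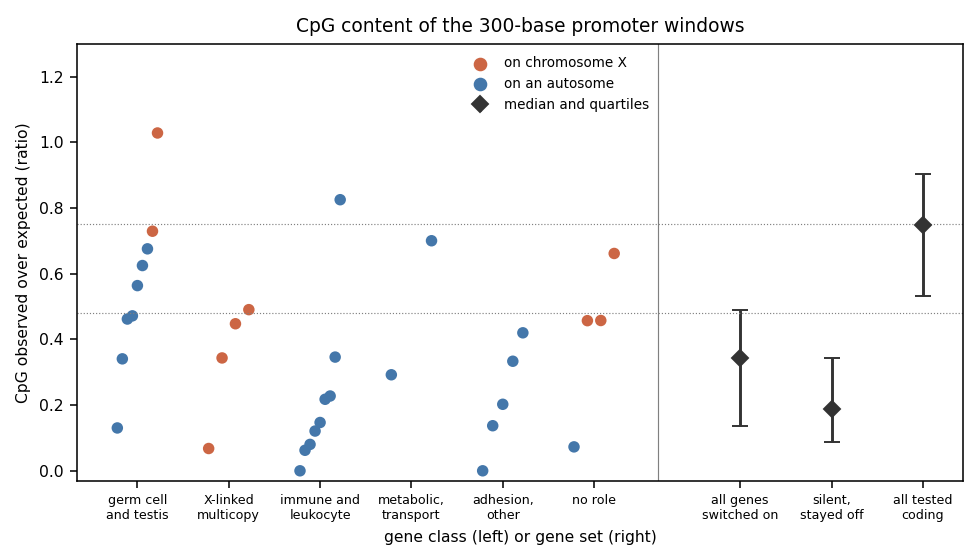
CpG observed over expected of the promoter windows, one point per gene and class on the left, and median with quartiles of 3 gene sets on the right. Dotted lines mark 0.48 and 0.75. Germ cell genes have a median of 0.564 and immune genes of 0.147, and the medians on the right are 0.344 for the genes switched on, 0.187 for the silent genes that stayed off and 0.749 for all tested coding genes, with incomplete coverage of the last 2 sets.

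CpG content was also described by the roles of the genes, without a test. The germ cell and testis genes had a median of 0.564 and 12 CpGs over 9 of 10 genes with a window, led by Taf7l (1.03, 17 CpGs), Tex13b (0.730, 13 CpGs), Tuba3b (0.676, 16 CpGs) and Slc9b1 (0.625, 10 CpGs). The lowest was Tex19.2 with 2 CpGs (0.130), and Tdrd12 (0.341), Dpep3 (0.462) and Tuba3a (0.472) were low as well. The immune and leukocyte genes had a median of 0.147 and 2 CpGs over 9 of 10 genes, with none in Defb41, 1 in Naip6 and 2 each in Acod1, Hamp2 and Ifi213. Ptpn7 held 10 CpGs (0.346), and Wdfy4 and Pglyrp1 held 5 each. Slfn4 had the highest ratio of the immune genes at 0.825, from 7 CpGs in a window of 33.7% GC. X-linked members had a median of 0.458 over 9 of 10 genes, beside 0.213 in the silent X-linked genes that stayed off, of which 77.0% had a window. Rhcg held the most CpGs of any window (19).

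Of 9 short motifs searched on both strands, the E2F6 letters TCCCGC were found in 9 of the 33 windows (27.3%), in 7.65% of the windows of silent genes that stayed off (9.82% without chemoreceptors), in 21.6% of those of other upregulated coding genes and in 6562 of all 32851 windows in the RefSeq table. The letters were found in 35.3% of the windows of tested coding genes and in 26.7% of those of all coding genes. The same limit of coverage holds for the motifs, and no comparison is drawn. E2F6 is a repressor known for binding promoters of germline genes. The letters stood in 3 of 9 windows of germ cell and testis genes and equally in 3 of 9 of immune and leukocyte genes. The 9 were Tuba3a, Tuba3b, Cox7b2, Hamp2, Xlr, Ptpn7, Rhcg, Clstn3 and Pglyrp1. The letters contain a CpG. The CCAAT letters stood in 13 windows (39.4%) beside 40.0% of windows that stayed off, and TATAAA in 7 (21.2%) beside 24.8%. The AP-1 letters TGANTCA stood in 4 windows (12.1%) beside 10.9%. A pair of GAAA set 2 bases apart, as in interferon-stimulated response elements, stood in 2 windows (6.06%, Pnma5 and Ifi213) beside 4.66%. The cAMP response element TGACGTCA and the E-box CACGTG were each found in 1 window, and the ETS letters CCGGAAGT and the NRF1 palindrome of GCGCA and its reverse complement in 0. These are matches of letters and not sites known to be bound.

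By their known roles, 10 genes belong to germ cells and testis. Taf7l, the germ-cell paralogue of a general transcription factor subunit (chrX:134460118-134476490, minus strand), had 2, 2 and 3 reads in controls and 398, 575 and 716 in knockouts. The highest knockout library exceeded the lowest by 1.10-fold, at a mean of 6.46 ± 0.344 CPM (SD, n = 3). Tex19.2, expressed in germ cells and placenta, went from 0, 3 and 1 reads to 169, 228 and 344, and Dpep3, a membrane dipeptidase of testis, from 0, 1 and 0 to 124, 223 and 503. For Dpep3 the knockout libraries differed 2.05-fold, with replicate 3 the highest. Tex13b, an X-linked gene of spermatogenic cells, had 0, 0 and 1 control reads and 180, 133 and 348 knockout reads.

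Both testis alpha-tubulins were switched on. Tuba3a had no control read and 95, 133 and 232 knockout reads, and Tuba3b had 0, 1 and 0 against 99, 134 and 278. Their coding sequences are close copies, so that uniquely mapped reads may be split between them. Their levels per length were 1.13 and 1.05 RPKM. Cox7b2, the testis form of a cytochrome c oxidase subunit, had 0 control reads and 92, 94 and 187 knockout reads. Slc9b1, a sodium/proton exchanger of sperm, had 0, 0 and 3 against 142, 138 and 271. Nutm1, a nuclear protein of spermatids (1, 1 and 0 against 37, 65 and 114), and Tdrd12, a Tudor domain protein of the piRNA pathway (2, 3 and 2 against 36, 44 and 131), were the lowest of the group. Tdrd12 was the member closest to the lower limit, at 0.507 CPM in knockout replicate 2.

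A longer list of germline and testis genes held 134 genes with rows in the table, of which 85 were silent in controls and 59 were expressed enough to be tested. Of the 59, 34 were called upregulated, against a background of 6.03%, and 0 downregulated (median log2 fold change 2.92, against close to 0 over all genes), and 7 of the 34 belong to the 41 genes (Taf7l, Tex19.2, Tex13b, Dpep3, Tuba3a, Tuba3b and Tdrd12). The list was written with earlier results of these data known and is no independent evidence. Outside the 41 genes, 27 of 52 tested list members were called. A list gene silent in controls passes the low-count filter only through reads in the knockout libraries. Both shares and the median log2 fold change are therefore in part set by the filter. The rest of the list includes genes that stayed off, since 36 list genes had at most 3 reads in all 6 libraries, among them Tnp1, Ldhc and Pgk2 of spermatids, Nobox and Figla of oocytes, and Lin28a and Dppa3 of early germ cells.

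The X-linked multicopy, tumour antigen and gag-derived genes numbered 5. Pnma5, a member of the paraneoplastic Ma antigen family derived from a retrotransposon gag gene, was the highest, with 0, 1 and 2 control reads and 174, 239 and 372 knockout reads. Its knockout libraries differed 1.14-fold. Trap1a, which encodes tumour rejection antigen P1A, had no control read and 62, 61 and 131 knockout reads. Xlr and Xlr3c, of the X-linked lymphocyte-regulated family, had 0, 1 and 0 and 0, 0 and 1 control reads, with 76, 54 and 124 and 60, 75 and 165 knockout reads. Pet2, known as a transcript of plasmacytomas, had 2, 0 and 1 against 74, 75 and 148. 3 of the 4 genes to which no role is assigned here were X-linked as well, among them both of the highest per length. 4930550L24Rik rose from 0, 0 and 2 to 441, 523 and 872 reads and 3830403N18Rik from 0, 3 and 1 to 353, 258 and 725. 3830417A13Rik had 1, 0 and 2 against 95, 112 and 175, and the autosomal 1700049E17Rik2 had 0, 2 and 1 against 40, 73 and 104.

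Chromosome X held 10 of the 41 genes (24.4%), but 7.16% of the silent coding genes on X and the autosomes. Of the 453 silent coding genes on X, 2.21% were switched on, against 0.528% of the 5872 on autosomes. Leaving out chemoreceptors, of which X has few, the shares were 2.25% and 0.662%. With the 12 genes left out by name put back, X held 14 of 53 (26.4%). The share moved with the control limit: with at most 10 reads allowed in each control library, 11 of 88 genes were on X (12.5%), and with 0 reads 1 of 7 (14.3%). With 0.25 CPM as the knockout limit it was 15 of 78. Genes on Y were left out of these shares, since the pups are labelled female. Chromosomes 9, 16, 17, 18 and 19 held no member.

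**Figure D3:**
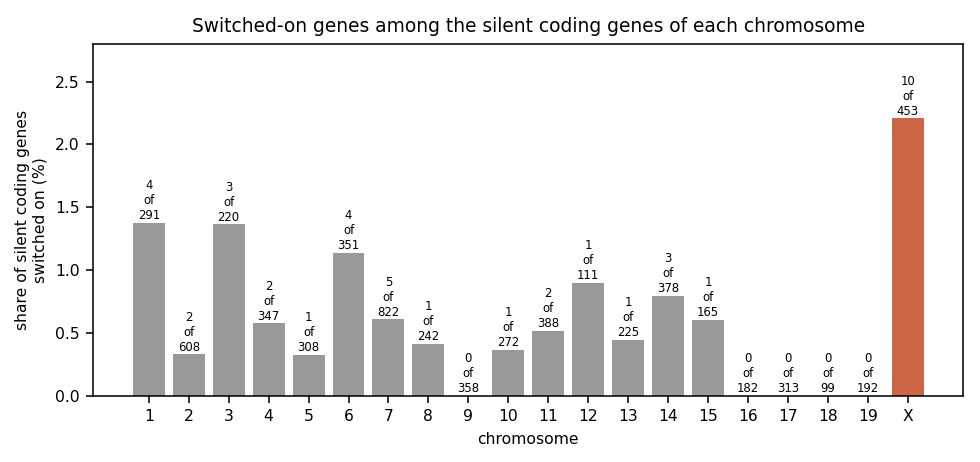
Share of the silent coding genes of each chromosome that were switched on, in percent, with the number switched on and the number silent above each bar. Chromosome X stands at 2.21% (10 of 453), above chromosome 1 at 1.37% (4 of 291) and chromosome 3 at 1.36% (3 of 220), and chromosomes 9, 16, 17, 18 and 19 stand at 0.

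Few of the 41 genes had an upregulated neighbour. Of 29 with a tested gene starting within 100 kb, 5 (17.2%) had an upregulated one, and the share was 21.4% for silent genes that stayed off. The 5 were Slfn4 (beside Slfn3, Gm11427 and AI662270), Pnma5 (beside Xlr3a and Xlr4a), Tex19.2 (beside Tex19.1 and Sectm1a), Xlr3c (beside Xlr4b and Xlr4c) and Pglyrp1 (beside Psg17 and Mill2). Of the 97 neighbours themselves 11 (11.3%) were upregulated, against 8.36% of the neighbours of genes that stayed off. The genes had a median of 8 exon blocks and 2623 exonic bases, against 4 blocks and 2046 bases for silent genes that stayed off. Pnma5 was the 1 gene of the 41 with a single exon block.

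A further 10 genes belong to immune cells and host defence. Slfn4, a schlafen of myeloid cells, was the highest by reads, with 2, 0 and 2 control reads and 272, 324 and 617 knockout reads. Acod1, which makes itaconate in activated macrophages, had 0, 1 and 0 against 104, 258 and 327, and Naip6, of a family of sensors for bacterial proteins, had 1, 3 and 0 against 109, 276 and 214. In CPM both were highest in knockout replicate 2. Defb41, a beta-defensin, had no control read and 142, 128 and 210 knockout reads. Hamp2, a hepcidin, had 1, 0 and 0 against 134, 118 and 192, with 15.3% of its exonic bases shared with an antisense gene. Ifi213, of the interferon-inducible p200 family, had no control read and 119, 111 and 195 knockout reads.

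The other 4 immune genes are best known from leukocytes and stood at 0.682 to 1.03 CPM. They were Ly9, a receptor of the SLAM family (0, 0 and 1 against 62, 72 and 144), Ptpn7, a tyrosine phosphatase of blood cells (3, 2 and 0 against 55, 71 and 132), Wdfy4, of dendritic cells (2, 2 and 0 against 86, 52 and 107), and Pglyrp1, a peptidoglycan recognition protein of neutrophil granules (3, 1 and 1 against 40, 72 and 64). Leukocyte markers were measured beside them. Ptprc, the CD45 gene that nucleated blood cells share, had 0, 0 and 2 reads in controls and 12, 1 and 0 in knockouts. The macrophage and dendritic cell markers Adgre1, Fcgr1, Cd207, C1qa and C1qb had at most 3 reads in every library, as did Cd3e, Cd3d, Cd3g, Cd4, Cd8a and Cd2 of T cells and Mpo, Elane, Ly6g and Csf3r of neutrophils.

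Markers of other cell types were measured by list, and the calls in each list stand beside the background of 6.03% upregulated over all genes tested. Of the 16 macrophage and dendritic cell markers, 7 were tested and 2 called upregulated (Csf1r and Itgam), and their summed level was 51.6 to 66.8 CPM in controls and 106 to 122 in knockouts, most of it from Cd68. Of the 14 neutrophil and mast cell markers, 4 were tested and 3 called (Ltf, S100a8 and S100a9, the last of which keratinocytes also make together with S100a8), with sums of 49.5 to 126 and 192 to 255 CPM, and 4 were at 0 in every library. The T cell markers had sums of 1.15 to 2.44 and 1.44 to 1.72 CPM, with 2 of 13 at 0 throughout and none of 2 tested called. Endothelial markers had 3 of 9 tested called (16.8 to 31.2 and 46.0 to 51.7 CPM), neuronal and Merkel cell markers 3 of 13 (53.5 to 97.9 and 139 to 206 CPM) and skeletal muscle markers 1 of 6 (9.70 to 17.0 and 16.7 to 23.3 CPM). None of 12 melanocyte markers was called, although their sum was 237 to 607 CPM in controls and 731 to 969 CPM in knockouts, and none of 12 fibroblast markers (74.1 to 100 and 70.1 to 120 CPM). In these lists too, a marker silent in controls could be tested only through reads in the knockout libraries. The part of these cells in the levels of the 41 genes was not tested.

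Metabolic enzymes and transporters numbered 6, of which 5 are described. Cyp4a12b, a fatty acid omega-hydroxylase of liver and kidney, had 0, 1 and 1 control reads and 402, 457 and 779 knockout reads. Its close copy Cyp4a12a had 0 reads in controls and 0, 0 and 1 in knockouts. Slc25a21, a mitochondrial carrier of oxodicarboxylates, had 0, 0 and 1 against 235, 292 and 342. Ugt3a2, a UDP-glycosyltransferase, had no control read and 137, 143 and 250 knockout reads. Acss3, a mitochondrial acyl-CoA synthetase, also had no control read and had 154, 189 and 284 knockout reads, but 33.9% of its exonic bases lie opposite an exon of Ppfia2, and the strand setting of the counting is not given in the sources used here. Rhcg, an ammonia transporter, had 3, 0 and 2 against 79, 68 and 73. Rhcg was highest in knockout replicate 1, by 2.14-fold over replicate 3 in CPM.

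The remaining genes act in adhesion, signalling or elsewhere. Arhgef38, a guanine nucleotide exchange factor, had the highest CPM of the 41, with 0, 1 and 3 control reads and 446, 352 and 1134 knockout reads, and ranked 17 per length. Cntn3, a contactin of neurons, had 1, 1 and 2 against 314, 292 and 578, and Rnf183, a RING finger ubiquitin ligase, had 0, 2 and 1 against 266, 250 and 369. Clstn3, a calsyntenin of synapses, had 1, 3 and 2 against 42, 53 and 122. Wdr49 had 0, 0 and 2 control reads and 84, 66 and 451 knockout reads. It was the least even gene, 5.01-fold higher in knockout replicate 3 than in replicate 2. The olfactory receptor Olfr1054 (0, 1 and 1 against 94, 45 and 181) was next, at 3.03-fold.

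The spread over the knockout libraries was uneven between genes and had a common direction. The highest library exceeded the lowest by a median of 1.54-fold, from 1.10-fold for Taf7l to 5.01-fold for Wdr49, with 18 genes under 1.5-fold and 9 over 2-fold. The median coefficient of variation was 22.2%, against 17.5% for 2421 coding genes in the same range of knockout CPM. The 2421 genes were not matched to the 41 by level within that range, and the difference was not tested. Knockout replicate 2 was the lowest library for 31 of the 41 genes (75.6%), for 43.5% of the 973 other upregulated genes and for 32.0% of all genes tested. Replicate 3 was the highest for 20 genes and replicate 1 for 18. The limits were set on the lowest library, and 4 of the 5 genes just inside the knockout limit were lowest in replicate 2, as were all 5 just outside.

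**Figure D4:**
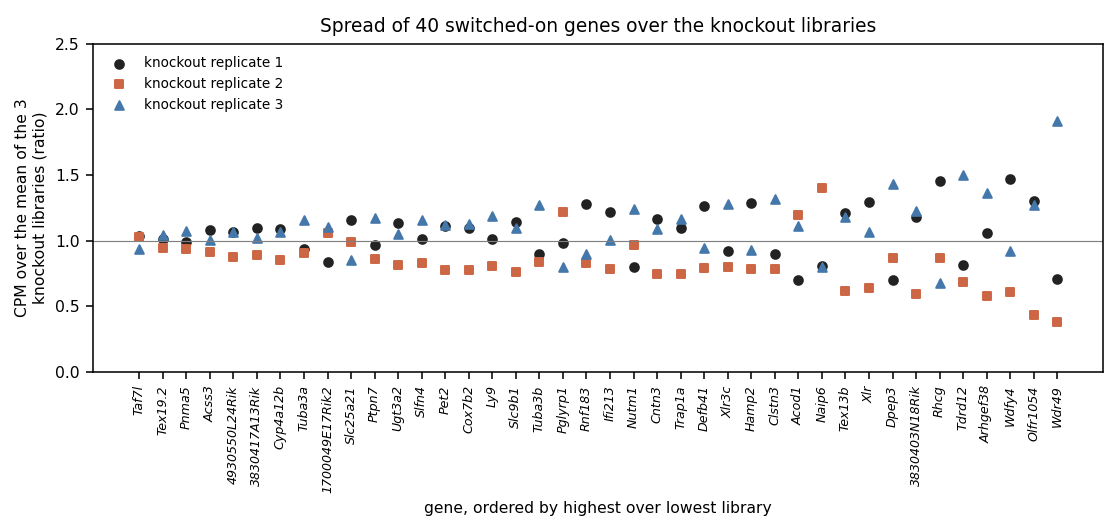
CPM of 40 of the 41 genes in each knockout library, divided by the mean of the 3 knockout libraries, with genes ordered by the ratio of highest to lowest library. Replicate 2 lies lowest for 31 of the 40 genes, and the ratio grows from 1.10-fold for Taf7l to 5.01-fold for Wdr49.

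The genes next to the limits are given once. The lowest knockout CPM on the column total was 0.507 for Tdrd12, 0.518 for Olfr1054, 0.554 for Pglyrp1, 0.599 for Wdfy4 and 0.611 for Clstn3. Just outside lay Asb2 (0.495 CPM), 1700029P11Rik (0.484), Mrgprx2 (0.472), Stab2 (0.461) and Strc (0.461), of which 1700029P11Rik and Mrgprx2 had no control read. On the control side, 11 members had 3 reads in their highest control library. A further 47 coding genes that met the knockout limit and the name rule had a highest control count of 4 to 10. Of these, 5 had 4 reads, and the most abundant of the 5 was Nckap1l, a regulator of actin in blood cells, with 4, 3 and 4 control reads and 191, 289 and 742 knockout reads.

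Relatives of the switched-on genes were followed to see whether whole families moved. The families of 28 of the 41 genes held 139 further genes, of which 57 were tested, 20 called upregulated (35.1% of those tested, against 6.03% of all genes) and 0 downregulated. Of the 82 untested relatives, 57 had at most 3 reads in all 6 libraries. A relative silent in controls passes the low-count filter only through reads in the knockout libraries. The share of those tested is therefore in part set by the filter. The families were drawn up after the values were seen. Of 19 relatives at 10 CPM or more in controls, 1 was called (Pglyrp3). Taf7, the ubiquitous counterpart of Taf7l, stood at 12.5 ± 1.52 CPM in controls and 11.2 ± 0.930 in knockouts (SD, n = 3, log2 fold change -0.16, adjusted p = 0.589). Cox7b, the ubiquitous counterpart of Cox7b2, stood at 103 ± 24.6 and 80.9 ± 12.3 (adjusted p = 0.314). The somatic alpha-tubulins Tuba1a, Tuba1b, Tuba1c and Tuba4a were not called, with log2 fold changes of -0.30 to 0.19.

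Other families moved in part. Tex19.1, the neighbour of Tex19.2, rose from 0.299 ± 0.184 to 87.7 ± 5.56 CPM (log2 fold change 8.29 ± 0.40, adjusted p = 0.000109), and Dpep1, which had 5 reads in each control and so lay above the limit for silence, rose from 0.0657 ± 0.0237 to 11.5 ± 1.92 CPM. In the Xlr family 6 of 10 genes were called, Xlr and Xlr3c with Xlr3a, Xlr4a, Xlr4b and Xlr4c, while Xlr3b was at 0.192 ± 0.0373 and 0.236 ± 0.132 CPM and not called. Of 9 schlafens 5 were called. Slfn2 rose from 0.741 ± 0.449 to 8.69 ± 2.62 CPM (adjusted p = 0.00436), and Slfn3, Slfn5 and Slfn8 were the others beside Slfn4. Slfn9, already expressed, had means of 27.9 ± 5.20 and 27.7 ± 10.8 CPM (adjusted p = 0.994). Of the 13 p200 genes, which sense DNA or respond to interferon, Aim2 rose from 0.953 ± 0.434 to 15.1 ± 1.81 CPM (adjusted p = 0.000971), and Ifi204 and Ifi211 were called as well, whereas Ifi202b stood at 156 ± 63.4 and 120 ± 23.3 CPM (adjusted p = 0.494). In the contactins 4 of 6 were called, Cntn3 with Cntn1, Cntn2 and Cntn5. Of the 20 relatives, 7 lost their call in fits that left out a library: Cntn2, Ifi204, Naip2, Slfn5, Tdrkh, Xlr4b and Xlr4c. The number of such fits ran from 1 for Xlr4b to 5 for Xlr4c, and no fold change reversed its direction.

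In other families the switched-on gene moved alone. Of 8 Cyp4a genes, 7 had at most 3 reads in every library and Cyp4a12b was the exception. Of 42 beta-defensins, 34 had at most 3 reads in every library. Defb41 was the single one called, while the epidermal Defb1 stood at 236 ± 65.1 and 182 ± 14.8 CPM (adjusted p = 0.283) and Defb14 at 41.3 ± 26.3 and 91.5 ± 54.8 CPM (adjusted p = 0.277). Hamp, the neighbouring hepcidin gene of liver, had 0 reads in 5 libraries and 6 in knockout replicate 3. Ugt3a1 had 0, 1 and 0 reads in controls and 3, 0 and 4 in knockouts. Of 9 genes of the SLAM family 1, Ly9, was called, and 5 had at most 3 reads in every library.

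**Figure D5:**
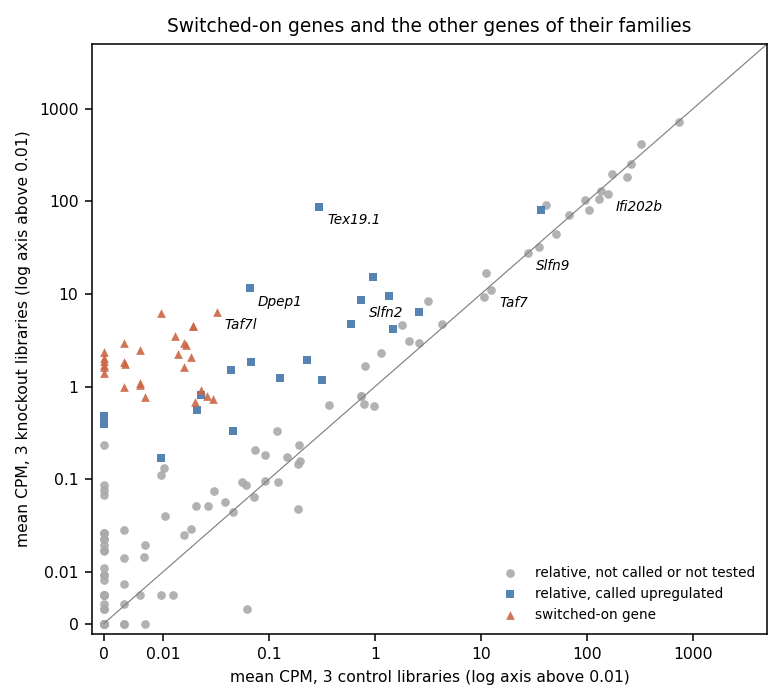
Mean CPM in the 3 control libraries (x axis) and the 3 knockout libraries (y axis) of 28 switched-on genes and 139 other genes of their families, on log axes above 0.01 with a line of equal level. Taf7 and Slfn9 lie near the line, and 20 relatives called upregulated lie above it, 19 of them at less than 3 CPM in controls.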

How the data were processed

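Gene counts were used as the authors deposited them: raw counts of reads per Ensembl gene, whole numbers without normalisation. The processing notes in the labels list bcl2fastq, Picard, SAMtools, cutadapt, Bowtie2, STAR, HTSeq and DESeq2 with build GRCm38, and the methods describe removal of ribosomal reads and counting in union mode. Column names in the deposited file point to uniquely mapped reads. The strand setting is not given in the sources used here, and the methods name a human index for the alignment where the labels name the mouse build. Entries that name no gene held 8.73 to 12.9% of counts and were left out. Deposited tables of fold changes and p-values for genes and repeats, and repeat counts, were not used here.

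Counts were tested with edgeR 4.0.16 (R 4.3.3), using TMM scaling, filterByExpr (minimum count 10, total 15) and the quasi-likelihood test of knockout against control, without a block, with Benjamini-Hochberg adjustment over all genes tested. The replicates are separate mice. CPM and RPKM were computed on TMM-scaled libraries, and the 0.5 CPM limit of the rule on column totals. Gene types, symbols and exon lengths came from GENCODE M21 (42462 of 43629 identifiers matched), and promoter windows from RefSeq, GRCm38.p6. Libraries with the same replicate number shared a sequencing lane per the file headers, and their deviations from the group means correlated at 0.43, 0.28 and 0.30 over genes, so that a fit with the replicate number as a block was run as an alternative. The edgeR script was first tested on simulated data.

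Members, families, gene lists and tests were chosen with earlier results of these data known. The rule named the 12 genes highest by CPM, the 8 highest by RPKM, members found in a gene list, and the 5 on each side of the knockout limit. The other members, the relatives and the neighbours are named after their values were seen. 1 member is counted in the totals but its own values are not reported here.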

Additional observations from a re-analysis of the deposited data

How the results depend on the processing

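The count of 41 genes follows the limits. It was 7 with 0 reads in each control, 88 with at most 10, 39 with at most 0.05 CPM in each control, 78 with 0.25 CPM and 26 with 1 CPM in each knockout library, and 43 to 52 when 1 library was left out. Without name exclusions it was 53, an alternative chosen after seeing the data. X-linked members, counted after seeing the data under the same alternatives, numbered 1 with 0 control reads, 6 at 1 CPM and 10 to 12 with 1 library left out. All 41 were called in each of the 10 alternative fits. The fit with the replicate block, in which same-numbered libraries are paired, called 1173 genes upregulated and 95 downregulated, and 38 genes of the germline list against 34, and it changed no call of the 41 genes. Upregulated genes numbered 1016 to 1396 under the other normalisation, filter and test. DESeq2 called 122 genes downregulated and 50 of the germline list upregulated, and edgeR without a filter on low counts 107 and 49. Leaving out 1 library gave 559 to 1183 upregulated and 15 to 180 downregulated genes, and 28 to 42 of the germline list. The median knockout level ranged from 1.64 to 1.94 CPM with 1 knockout library left out. The promoter CpG ratio was 0.375 for members at 1 CPM or more and 0.472 for those with 0 control reads, where 5 of 7 genes (71.4%) had a window, too few for a comparison. A window of 1000 bases was not run, since no genome of the build was used here.

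Depth limits the low end: 3 reads in a control library were 0.0308 to 0.0558 CPM, so that silence is known to that level and no further. Gene copies and overlapping genes on opposite strands are uncertain in counts whose strand setting is not given.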
